A study of Mus musculus with 6 samples.

Results

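Neurofilaments are the intermediate filaments of neurons, and their subunits are encoded by Nefl (light), Nefm (medium), Nefh (heavy) and Ina (alpha-internexin). The 4 genes were taken by name from the 15450 named genes of the deposited table, where they occupy 5 of 26691 transcript rows, and all 4 were measured. Rod domains of the subunits coil together, the light subunit forms the core of the filament, and the long tails of the medium and heavy subunits project sideways and are phosphorylated in axons. In development alpha-internexin appears early and the heavy subunit late, the filaments set the calibre of large axons, and in the retina antibodies to the heavy subunit mark the large alpha ganglion cells.

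The RNA came from live Thy1-positive cells sorted from mouse retinas. Eyes received AAV-Sox11, a virus that supplies the transcription factor Sox11 of developing neurons, or AAV-Control, which carried PLAP. Mice were 3 to 4 weeks old at the start, the virus was in the eye for 2 weeks, and both groups had their optic nerves crushed 3 days before death. Each group had 3 libraries, A, B and C, each pooled from 3 retinas of different animals, and the libraries of a letter were prepared on the same day. The labels name neither the strain nor the promoter that drives the viral cargo. The comparison asks what Sox11 does to the transcripts of crushed ganglion cells.

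Values below are the authors' normalized values, which carry no unit and sum over a gene's rows. The deposited whole numbers total 10747985 to 11546892 per library. They are not raw read counts: along 1 direction across the 6 libraries they have no spread beyond rounding, and AAV-Sox11 B carries 57.7% of the squared weight of that direction, AAV-Sox11 A 18.4% and AAV-Sox11 C 12.5%. Part of the spread between the AAV-Sox11 libraries is therefore missing, and their SDs are too small to an extent that was not measured. Sox11 itself was higher in all AAV-Sox11 libraries (179.3, 233.7 and 283.6 in A, B and C) than in the controls (131.1, 110.8 and 100.3), with a log2 fold change of 1.0 ± 0.20 (SE, limma adjusted p = 0.0504). The cells are labelled as retinal ganglion cells, and of 9 ganglion cell markers only Pou4f3 was not in the table, but the amacrine gene Gad2 was also abundant (8633 to 10880 with AAV-Sox11, 7410 to 10782 in the controls), so the libraries hold RNA of other retinal cell types as well.

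The kinship of the subunits can be seen in an exon of 125 bases that encodes the end of the rod domain, where intermediate filaments are most alike. It is shown for Ina and Nefl, the most abundant members, 5′ to 3′ on the coding strand from GENCODE M21 (GRCm38), with capitals at the 95 positions that are identical in both, to make their likeness visible.
Ina, exon 2, chr19:47021833-47021957, plus strand: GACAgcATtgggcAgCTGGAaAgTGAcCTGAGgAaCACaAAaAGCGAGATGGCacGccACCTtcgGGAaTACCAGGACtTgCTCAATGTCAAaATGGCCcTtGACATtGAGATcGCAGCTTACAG
Nefl, exon 2, chr14:68085974-68086098, plus strand: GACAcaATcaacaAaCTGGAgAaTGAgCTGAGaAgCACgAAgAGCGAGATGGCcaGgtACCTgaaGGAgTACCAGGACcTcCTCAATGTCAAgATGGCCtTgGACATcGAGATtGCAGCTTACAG
Identity between these exons was 76%.

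What sets Nefh apart is its tail, whose phosphorylation sites lie in repeats of lysine, serine and proline. A stretch of 150 bases from its exon 4 (chr11:4940920-4941069, minus strand, bases 1549 to 1698 of the coding sequence) is shown as the densest part, with each in-frame run of codons for lysine, serine and proline in capitals.
Nefh: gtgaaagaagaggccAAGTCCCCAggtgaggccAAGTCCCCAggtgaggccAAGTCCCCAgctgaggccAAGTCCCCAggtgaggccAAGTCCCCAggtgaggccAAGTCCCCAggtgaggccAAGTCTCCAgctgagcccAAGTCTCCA
This stretch holds 8 such runs, and the whole coding sequence of Nefh holds 51. The Nefm transcript with most of the signal holds 4, and Nefl and Ina hold 0. Among 14189 deposited transcripts with a coding sequence in the annotation, 11.3% hold at least 1, and Nefh is the only 1 with 51 or more.

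With AAV-Sox11, the heavy subunit had higher values in every library, while the other subunits overlapped between the groups. Nefh had 498.3, 499.5 and 394.2 in AAV-Sox11 A, B and C, against 236.9, 334.4 and 250.9 in AAV-Control A, B and C. The lowest AAV-Sox11 library thus lay above the highest control; over all genes, AAV-Sox11 was higher without overlap in 16.2%. The means were 464 ± 60.5 and 274 ± 52.7 (SD, n = 3 each), a 1.7-fold difference, with a log2 fold change of 0.77 ± 0.16 (SE, 95% interval 0.38 to 1.15). Its adjusted p of 0.0569 in limma missed the threshold of 0.05, which 0.796% of genes passed as higher in AAV-Sox11. With the preparation day as a replicate block the adjusted p was 0.0381, where 2.09% of genes passed in that direction, but it was 0.0868 with the block and the direction without spread together. Without AAV-Control B and with no block it was 0.0309, where 2.19% passed. Over all 24 alternatives it ran from 0.0309 to 0.281, the highest being without AAV-Sox11 B, where 0 genes passed. Within the same-day pairs the log2 differences of Nefh were 1.07, 0.58 and 0.65 for A, B and C, so the gene was higher in each. In the authors' deposited table Nefh had a log2 fold change of 0.76 with a false discovery rate of 0.0122, where 1.93% of rows were higher at a rate under 0.05.

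Nefl, the core subunit, had 2469, 2900 and 3064 with AAV-Sox11 and 4741, 3316 and 2758 in the controls. Control A stood highest of all 6, and control C lay between the AAV-Sox11 libraries. The log2 fold change was -0.33 ± 0.19 (SE, 95% interval -0.78 to 0.12, limma adjusted p = 0.332), and it was -0.11 without control A and -0.02 without both A libraries. Same-day differences of Nefl were -0.94, -0.19 and 0.15, so the pairs did not share a direction.

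Nefm, whose tail carries fewer repeats, had 835.1, 978.2 and 1002 with AAV-Sox11 and 1750, 1141 and 920.5 in the controls. Its order over the libraries was that of Nefl, with control A highest and AAV-Sox11 A lowest. The log2 fold change was -0.39 ± 0.22 (SE, 95% interval -0.90 to 0.12, limma adjusted p = 0.314), and -0.13 without control A. The same-day differences were -1.07, -0.22 and 0.12.

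Ina, the subunit that joins the other 3 in the central nervous system, had 2679, 3037 and 3351 with AAV-Sox11 and 3411, 3513 and 3265 in the controls. In the controls it was steadier than Nefl (3396 ± 124, against 3605 ± 1020 for Nefl, SD, n = 3). Its log2 fold change was -0.17 ± 0.10 (SE, 95% interval -0.40 to 0.05, limma adjusted p = 0.306), and AAV-Sox11 C lay above control C. None of the 4 members passed in limma, where 2.32% of genes did, and Nefh had an unadjusted p under 0.05, as had 24.3% of genes.

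**Figure D1:**
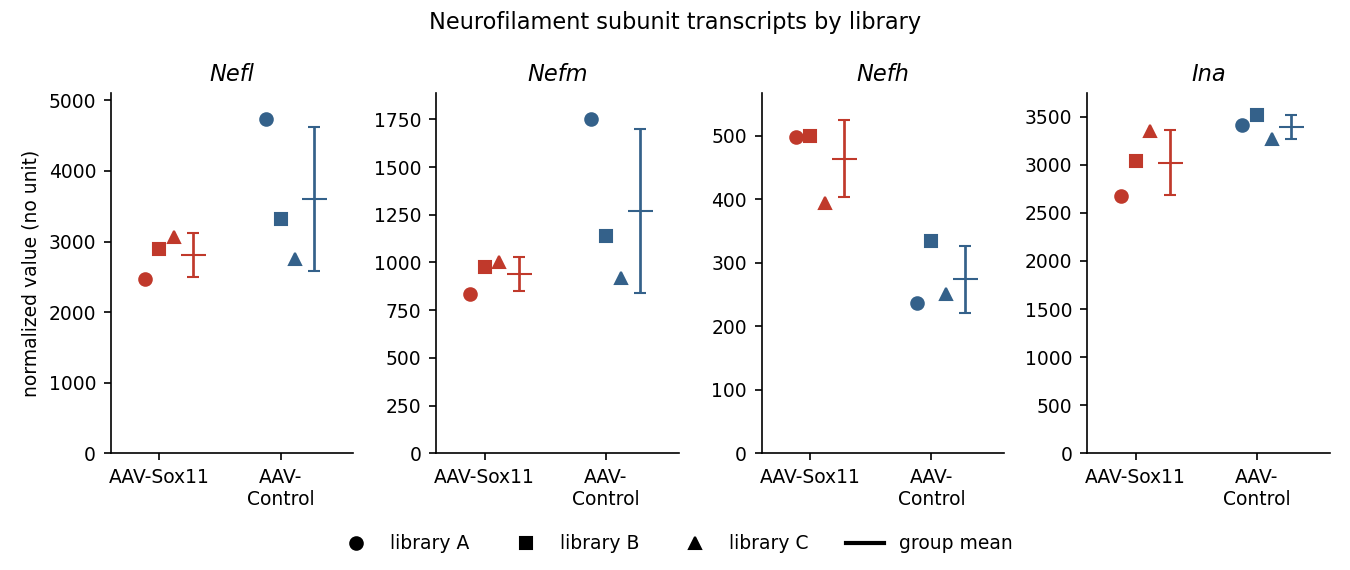
Normalized values (vertical axes from 0, no unit) of the 4 subunit genes in the 3 AAV-Sox11 and 3 AAV-Control libraries, with the mean and SD of each group beside the points. Nefh lies between 394.2 and 499.5 with AAV-Sox11, above all controls, whereas the groups overlap for Nefl, Nefm and Ina.

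The balance of heavy to light subunit was shifted in the same direction in every pair. The ratio of Nefh to Nefl was 0.202, 0.172 and 0.129 in AAV-Sox11 A, B and C and 0.05, 0.101 and 0.091 in the controls. All 3 ratios with AAV-Sox11 were above all 3 in the controls, and the scaling of a library cannot alter them. The mean was 0.168 ± 0.0368 with AAV-Sox11 and 0.0806 ± 0.027 in the controls (SD, n = 3 each), a 2.13-fold difference of geometric means (log2 difference 1.09). The exact permutation test, two-sided, gave p = 0.1, the smallest value that 3 against 3 allows, and 0.3 after adjustment over the 3 ratios examined. Same-day folds were 4.03 for A, 1.71 for B and 1.41 for C, so pair A, in which control A had the most Nefl and the least Nefh, was far above the rest. Without control A the log2 difference was 0.78, and 0.63 without both A libraries.

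Nefm kept close to Nefl. The ratio of Nefm to Nefl was 0.338, 0.337 and 0.327 with AAV-Sox11 and 0.369, 0.344 and 0.334 in the controls, with a log2 difference of -0.06 (exact permutation p = 0.3, two-sided). These ratios lay within a narrow band in all 6 libraries, including control A. The ratio of Ina to Nefl was 1.09, 1.05 and 1.09 with AAV-Sox11 and 0.719, 1.06 and 1.18 in the controls (log2 difference 0.15, exact permutation p = 0.8, two-sided). Control A stood alone here as well.

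**Figure D2:**
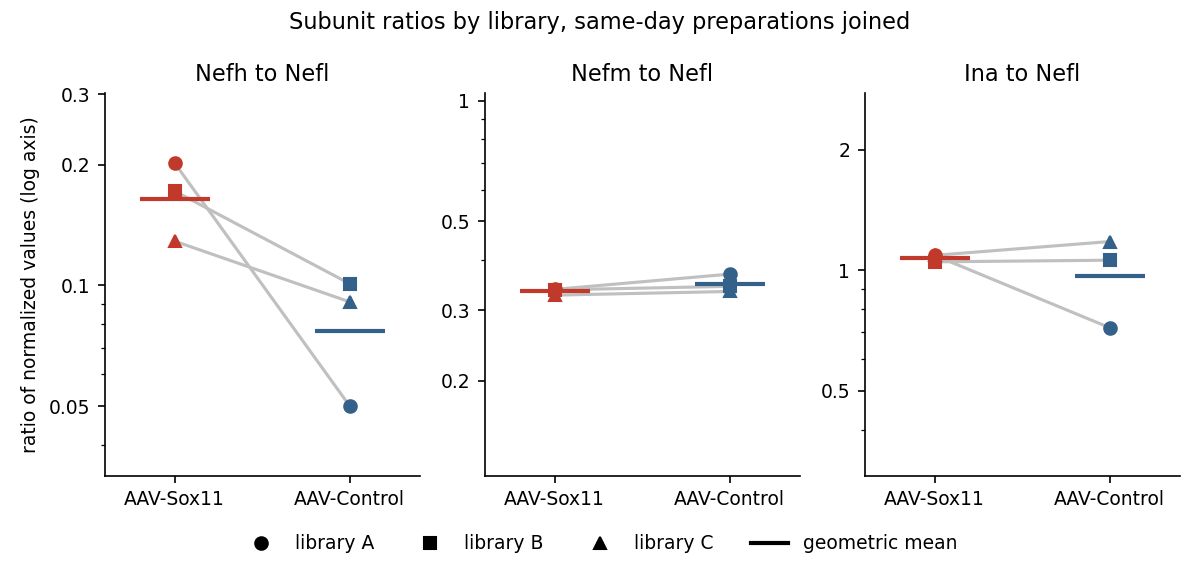
Ratios of Nefh, Nefm and Ina to Nefl (log axes, each spanning the same number of folds) per library, AAV-Sox11 left and AAV-Control right, with lines joining libraries prepared on the same day and bars at the geometric means. Nefh to Nefl is 0.129 to 0.202 with AAV-Sox11 and 0.05 to 0.101 in the controls, while Nefm to Nefl stays between 0.327 and 0.369 throughout.

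As a pool, the 4 subunits summed to 6481, 7416 and 7811 with AAV-Sox11 and 10138, 8305 and 7194 in the controls. The sums overlapped, with means of 7236 ± 683 and 8546 ± 1490 (SD, n = 3 each). Of this pool, Nefh made up 7.69%, 6.74% and 5.05% in AAV-Sox11 A, B and C and 2.34%, 4.03% and 3.49% in the controls. Ina and Nefl were the largest parts of it in each library, with shares of 41.7% ± 1.03 and 38.8% ± 0.626 under AAV-Sox11 and 40.4% ± 6.09 and 41.7% ± 4.48 in the controls. Per kilobase of transcript, Ina averaged 932.8 ± 104 with AAV-Sox11 and 1048 ± 38.5 in the controls, and Nefl 831.7 ± 90.9 and 1067 ± 303. Within a library, Ina was above Nefl per kilobase in every AAV-Sox11 library and in controls B and C. It was below Nefl in control A (1053 against 1403). Nefm followed, at 278 ± 27 and 374 ± 130 per kilobase. Nefh was lowest in every library, at 116.2 ± 15.1 with AAV-Sox11 and 68.62 ± 13.2 in the controls.

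Nefl and Nefm lie beside each other on chromosome 14 in GRCm38, Nefl at 68083863 to 68089095 on the plus strand and Nefm at 68082590 to 68124846 on the minus strand. Nefh is on chromosome 11 (4938754 to 4948064, minus) and Ina on chromosome 19 (47014698 to 47025327, plus). All are protein-coding genes, and Nefl, Nefh and Ina each rest on 1 transcript row. Nefm has 2 rows. ENSMUST00000022638, with 3 exons and a coding length of 2544 bases, held nearly all of its value (823.6, 967.8 and 989.5 with AAV-Sox11, 1731, 1120 and 889.6 in the controls). ENSMUST00000111089, with 4 exons, lacks a long exon that the other row has, has a coding length of 1410 bases and holds 0 lysine-serine-proline runs. It had 11.47, 10.39 and 12.07 with AAV-Sox11 and 18.44, 21.57 and 30.88 in the controls. All AAV-Sox11 values of this row were below all controls, with a log2 fold change of -0.97 ± 0.27 (SE, limma adjusted p over rows 0.0933). AAV-Sox11 was lower without overlap in 14.4% of genes, a share over gene sums and not over rows. Its last exon lies on top of Nefl exons on the opposite strand over 1108 bases. Whether the counting used strand is not recorded, so within these bases reads of Nefl and of this row cannot be told apart. This row also shares 1232 bases with the exons of the main Nefm row on the same strand. Among the controls it was highest in C (30.88), where Nefl was lowest (2758). The row has little weight in the gene sum of Nefm, and the main Nefm row does not overlap Nefl exons. The start of Ina overlaps Nt5c2 on the other strand.

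**Figure D3:**
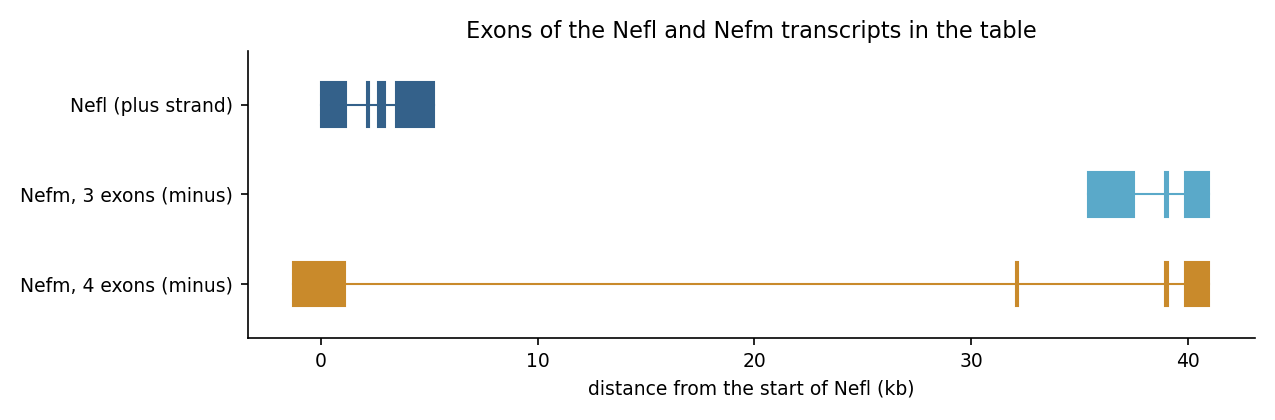
Exons (boxes) and introns (lines) of the Nefl transcript and both Nefm transcripts in the table, by distance from the start of Nefl in kilobases. The last exon of the Nefm transcript with 4 exons reaches back over the first exon of Nefl, and the transcript with 3 exons ends 30187 bases beyond Nefl.

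Within several cell types the markers shared a direction between the groups, and their part in these results was not tested. In bulk RNA, fewer cells of a type and less RNA per cell cannot be told apart. Of 9 ganglion cell markers 8 were measured, all with positive log2 fold changes (0.02 to 1.47, median 0.70, against 0.03 over all genes), though none passed in limma. The lowest, Rbpms, was flat (0.02 ± 0.24, SE), with means of 41.85 with AAV-Sox11 and 42.44 in the controls. The ganglion cell markers summed to 4761, 6602 and 6802 with AAV-Sox11 and to 3552, 5225 and 3098 in the controls. Slc17a6 and Thy1, the gene of the sorting marker, made up most of it. Within the AAV-Sox11 group this sum was lowest in A, where Nefh was 498.3, and highest in C, where Nefh was lowest (394.2). Among the controls the sum and Nefh were both highest in B (5225 and 334.4). Alpha ganglion cell markers did not move together: Il1rapl2 had a log2 fold change of 0.83 ± 0.25 (SE, limma adjusted p = 0.109), Opn4, the melanopsin that some alpha cells carry, 0.26 ± 0.29, and Kcng4, a potassium channel subunit of alpha cells, -0.64 ± 0.38. Spp1, of the same list, was not in the table. Their sum was 171 to 221.2 with AAV-Sox11 and 169.6 to 412.6 in the controls, with the highest value in control A, where Nefl and Nefm were also highest. Kcng4 made up most of this sum (368 in control A). Il1rapl2 (28.16) and Opn4 (16.5) were not at their highest in that library.

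Horizontal cells also contain neurofilaments. Of 5 markers of these cells Lhx1 and Onecut2 were not in the table. Onecut1 was low (12.52 to 17.09 with AAV-Sox11, 16.4 to 17.47 in the controls), and Calb1 had 228.3 to 320.8 and 278.5 to 433. Prox1, which other retinal cells also express, fell to 6624 ± 364 with AAV-Sox11, against 11082 ± 624 in the controls (log2 fold change -0.74 ± 0.08, SE, limma adjusted p = 0.0153), and made up most of the list's sum (6599 to 7377 and 10744 to 12146). Its limma adjusted p was 0.063 to 0.112 when an AAV-Sox11 library was left out. With the direction or the sex index as a covariate it was 0.0591 and 0.119. Over all genes 0 passed in each of these fits, so the missed threshold is not particular to Prox1. All 5 bipolar cell markers had negative log2 fold changes (-1.17 to -0.70, median -0.86), as had all 4 cone markers (-0.98 to -0.72, median -0.86), the 3 microglia markers measured of 5 (-0.73 to -0.53, median -0.57) and the 3 oligodendrocyte markers measured of 4 (-1.21 to -0.06, median -0.17), and none of these passed in limma. Bipolar markers summed to 960.3 to 1475 with AAV-Sox11 and 1064 to 4631 in the controls, and cone markers to 361 to 546.3 and 498.1 to 1924. Microglia markers summed to 239.9 to 324.8 with AAV-Sox11 and 282.4 to 620.4 in the controls, and oligodendrocyte markers to 626.5 to 693.8 and 693.3 to 783.5. The sums of all 4 lists overlapped between the groups. Of 6 amacrine markers 0 rose and 1 fell in limma (median 0.17), where over all genes 0.796% rose and 1.52% fell. The amacrine markers summed to 10708 to 13112 with AAV-Sox11 and 9385 to 13181 in the controls. The amacrine gene that fell was Slc6a9, a glycine transporter, with 208.5, 185.9 and 190 in AAV-Sox11 A, B and C and 462.1, 285.3 and 391.7 in the controls (log2 fold change -0.93 ± 0.18, SE, limma adjusted p = 0.0481). Slc6a9 did not pass when any AAV-Sox11 library, AAV-Control A or AAV-Control C was left out (limma adjusted p of 0.07 to 0.216). Nor did it pass with the direction or the sex index as a covariate (0.113 and 0.241). Over all genes 0 passed without an AAV-Sox11 library or with either covariate, 138 without AAV-Control A and 395 without AAV-Control C. Slc6a9 also missed with the replicate block and the direction together (limma adjusted p = 0.0576), where 132 genes passed. With no trend it had 0.0701, where 227 passed. Muller glia markers (4 of 5 measured, median 0.02) summed to 6407 to 7873 with AAV-Sox11 and 5437 to 13286 in the controls, and astrocyte markers (2 of 4, median -0.02) to 139.8 to 229.3 and 78.44 to 486.4. Control A had the highest sums of horizontal cell, bipolar, cone, Muller glia and astrocyte markers among all 6 libraries. A sex index, Xist against 4 Y-linked genes on the log2 scale, was 6.86, 8.11 and 8.45 with AAV-Sox11 and 6.82, 6.79 and 5.26 in the controls. With the index as a covariate, where 0 genes passed, Nefh had a log2 fold change of 0.79 ± 0.26 (SE, limma adjusted p = 0.228). Nefl and Nefm moved further down, to -0.74 and -0.84 (adjusted p = 0.193 and 0.21).

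Genes that work with neurofilaments were largely without calls, and over all genes 2.32% passed in limma. Of the 7 other intermediate filament genes Prph, the peripherin that joins neurofilaments in peripheral neurons, and Nes were not in the table, and 0 of the 5 tested passed in limma (median log2 fold change -0.33). Synm, the filament protein synemin, had 125.1, 118.4 and 150.8 with AAV-Sox11 and 257.3, 183.4 and 276 in the controls (-0.84 ± 0.19, SE, adjusted p = 0.0603). The groups did not overlap, and over all genes AAV-Sox11 was lower without overlap in 14.4%. Vim, the vimentin of glia and immature cells, had 967.8 ± 183 and 1095 ± 656 (SD, n = 3 each), and its value in control A was 1826. Des, the muscle filament desmin, had a log2 fold change of -0.46 ± 0.37.

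Of 9 tested genes for linkers, turnover and binding of neurofilament mRNA, 0 passed (median 0.19). Arhgef28, whose product binds the light subunit mRNA, had 311.7, 368.6 and 300.7 with AAV-Sox11 and 275.7, 240.2 and 144.7 in the controls (log2 fold change 0.61 ± 0.24, SE, limma adjusted p = 0.171). Trim2, a ubiquitin ligase that acts on the light subunit, had -0.32 ± 0.16 (adjusted p = 0.265). Of 12 tested kinase, phosphatase and isomerase genes, 0 passed (median 0.12). Cdk5, a kinase of the tail repeats, had 0.21 ± 0.11, and the largest changes in size were those of Camk2a (0.89 ± 0.46) and the phosphatase subunit Ppp2r2b (-0.81 ± 0.41), each with a wide error. Among 8 motor genes, 0 passed (median 0.12). Kif5a, the kinesin that carries neurofilaments, had 0.25 ± 0.13, Dync1h1, the dynein heavy chain, 0.41 ± 0.11 (adjusted p = 0.0853), and Dctn1, of its partner dynactin, -0.35 ± 0.13.

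In the list of other axonal cytoskeleton genes, 1 of 8 rose and 1 fell (median 0.02), where over all genes 0.796% rose and 1.52% fell. Map1b, a microtubule-associated protein of growing axons, had 42038, 49955 and 51164 with AAV-Sox11 and 27535, 27854 and 23020 in the controls, a 1.83-fold rise (log2 fold change 0.87 ± 0.12, SE, limma adjusted p = 0.0201). Ank3, the ankyrin of the axon initial segment, fell to 21060 ± 468 with AAV-Sox11, against 29258 ± 1230 in the controls (-0.47 ± 0.08, adjusted p = 0.0294). Neither gene passed when any AAV-Sox11 library or AAV-Control A was left out (adjusted p of 0.056 to 0.127 for Map1b and 0.0698 to 0.227 for Ank3). Nor did they with the direction without spread as a covariate (0.0652 and 0.123) or the sex index (0.119 and 0.141). Over all genes 0 passed without an AAV-Sox11 library or with either covariate, and 138 without AAV-Control A. With the replicate block and the direction together 132 genes passed, but not Map1b or Ank3 (limma adjusted p = 0.0513 and 0.115). With no trend 227 passed, among them Map1b but not Ank3 (0.0463 and 0.0693). With the sex index the log2 fold change of Map1b was 0.60. Mapt, the microtubule protein tau, had -0.26 ± 0.07 (adjusted p = 0.0995). The lists were drawn up with results of these libraries known, so their counts are no independent evidence.

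**Figure D4:**
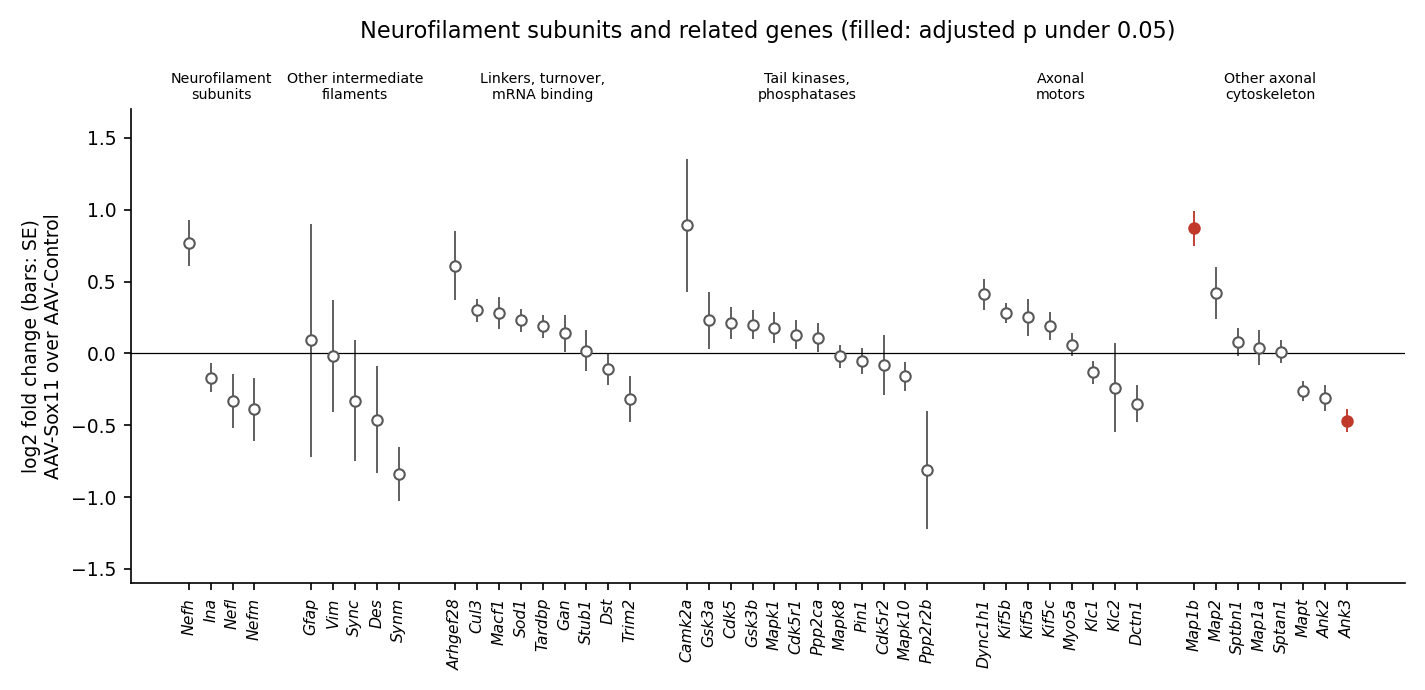
Log2 fold changes, AAV-Sox11 over AAV-Control, with SE bars, for the 4 subunits and 5 lists of related genes, ordered by size within each list. Nefh is the only subunit above 0, and the filled points, Map1b and Ank3, are the genes with an adjusted p under 0.05.

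Likeness was measured as the root mean square difference between centred log2 profiles over the 6 libraries, among 9507 other genes of mean value at least 100. Nefl and Nefm were closer to each other (0.055) than either was to any of these genes, of which Il4i1 came nearest to both (0.062 and 0.064). St3gal1 (0.068) and Arrdc3 (0.071) followed for Nefl, and Extl2 (0.081) and Gabra4 (0.089), a GABA receptor subunit, for Nefm. Ina was 0.232 from Nefl and nearest to Mios (0.022), Sh3bp1 (0.025) and Dip2a (0.026). Nefh was 0.659 from Nefl, 0.70 from Nefm and 0.527 from Ina, and its nearest genes were Tbc1d2b (0.039), Eepd1 (0.063) and Il18bp (0.087). These distances are descriptions over 6 libraries of which 1 direction has no spread, and a gene can come near by that alone.

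**Figure D5:**
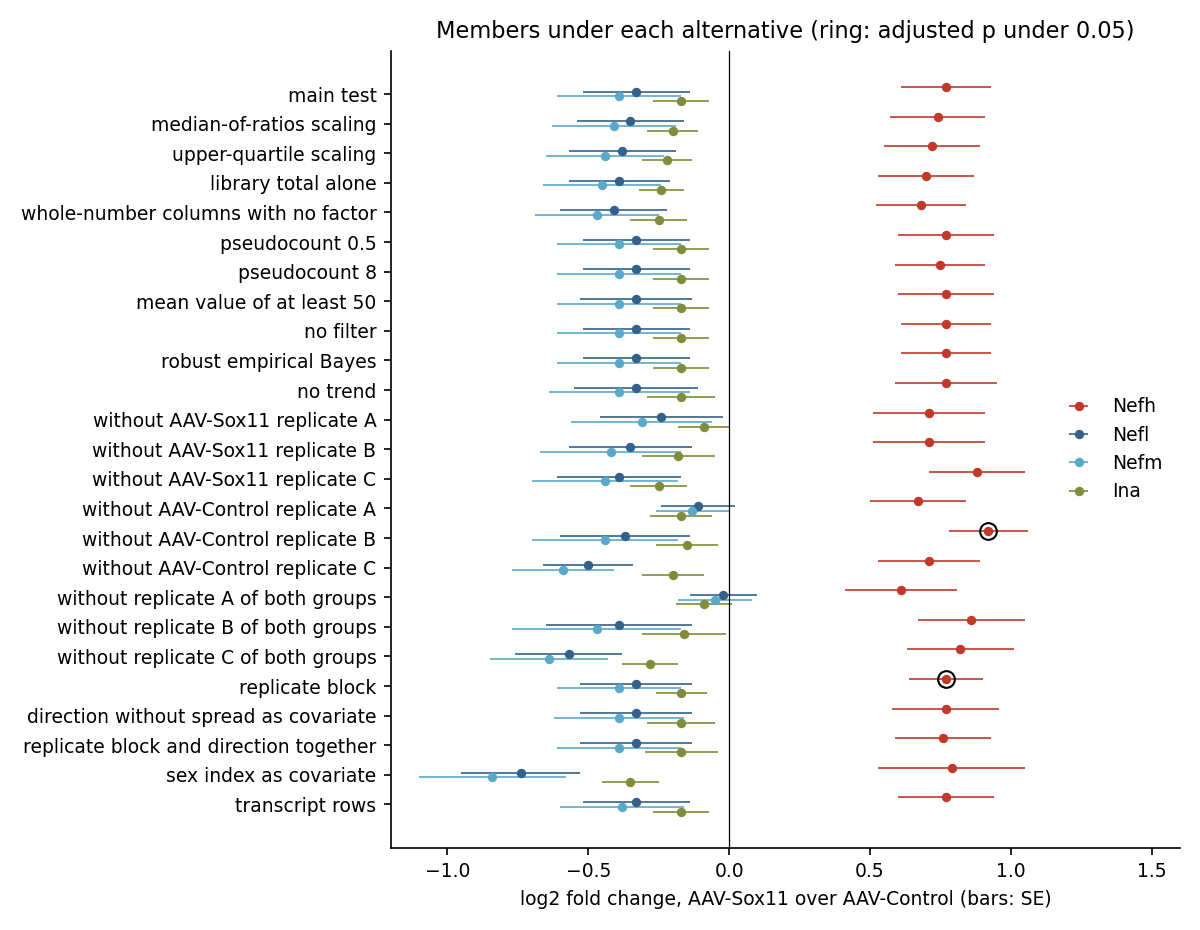
Log2 fold changes with SE bars of the 4 subunits under the main test and 24 alternatives, with rings where the adjusted p was under 0.05. Nefh stays between 0.61 and 0.92 and carries a ring without AAV-Control B and with the replicate block, and Nefl and Nefm come nearest to 0 when both A libraries are left out.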

How the data were processed

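Polyadenylated RNA of 6 sorted pools was sequenced after low-input amplification, per the labels' protocols. Per the submitters' processing notes, CASAVA 1.8.2, edgeR and the build mm10 were used; the sources used here do not say how reads were aligned and counted, or with which strand setting and annotation. The deposited file is a table of 26691 transcript rows. The normalized columns used here are a signal that equals the deposited whole numbers times 1 factor per library (0.9649 to 1.043). The deposited whole numbers are treated as a score, since a direction across libraries had been removed from them: for the 1177 rows of mean value above 2000, the SD along it was 9.48e-05 natural log units, against 0.0171 from counting alone. Its cosine with the group contrast was 0.019 in size. The authors' log2 fold changes and p-values with false discovery rates were copied as deposited and are named as theirs. The table has 0 zero values, and 6 further columns of per-library contrasts were not used.

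The 357 rows with no gene name (0.422% to 0.517% of a library) were left out, and rows were summed by name to 15450 genes, 10461 of them on 1 row. All genes were fitted with limma 3.58.1 (R 4.3.3), trend on log2(value + 1), no covariate, two-sided, with Benjamini-Hochberg adjustment over all genes; fold changes on that scale understate those of low genes. No gene fell under the minimum mean of 1. P-values rest on the spread between pools of animals that remains in the deposited values, which includes the preparation day where no block was fitted. Because depth is only known from adjusted values, no counting intervals are given. Ratios were compared with exact permutation tests. The members, lists and alternatives were chosen with earlier results of these data known. Named are the members, Sox11, and per list those that passed, those with the 2 largest changes, Prph and Vim; Cdk5, Kif5a and Mapt are named in addition, after their values were seen. The 3 nearest genes of a member are named by the distance over libraries. Libraries of a letter are paired because the series' design text says that control and Sox11 preparations of a replicate shared a day. Deviations of same-letter libraries from their group means correlated at 0.07, 0.83 and 0.36 for A, B and C. Those of AAV-Sox11 B and AAV-Control C correlated at -0.90. The direction without spread ties AAV-Sox11 B to AAV-Control B and C, so these values cannot show whether libraries shared a day. The replicate block was an alternative.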

Additional observations from a re-analysis of the deposited data

How the results depend on the processing

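Directions of all 4 members and of the ratio of Nefh to Nefl held under every alternative run (24 for each member, 13 for the ratio). Nefh passed 0.05 with the replicate block (log2 fold change 0.77) but not with the block and the direction together (0.76, limma adjusted p = 0.0868); the block changed no other call among the members. Leaving out 1 library gave 0.67 to 0.92 for Nefh, with a pass only without AAV-Control B (0.92), and leaving out a same-day pair 0.61 to 0.86. Nefl ranged from -0.74 to -0.02, Nefm from -0.84 to -0.05 and Ina from -0.35 to -0.09. The log2 ratio of Nefh to Nefl ranged from 0.63 to 1.39, with an exact sign-flip p of 0.25 over the pairs, the smallest it can give. The summed neurofilament value (-0.23) ranged from -0.35 to -0.10.

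Over all genes, limma called 358 (123 higher, 235 lower). The count was 737 with the replicate block, 132 with block and the direction without spread, 227 with no trend, and 0 to 745 when libraries were left out: 138 without AAV-Control A, 745 without AAV-Control B, and 0 without AAV-Sox11 A, B or C (3120, 1942 and 2953 at an unadjusted p under 0.05). It was 0 with the direction as a covariate and 0 with the sex index, where limma gave 2582 and 2702 genes an unadjusted p under 0.05. When both libraries of a letter were dropped, A left 1, B left 1 and C left 0. Higher calls were 34.4% of all calls, 22.0% with upper-quartile scaling, 22.4% by library total and 17.4% for the unscaled whole numbers. They were 43.8% with the replicate block and 47.7% with the block and the direction together. Without AAV-Control B they were 45.5%, and without AAV-Control C 46.8%. The causes were not tested. Removed spread within groups limits all these p-values.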
